A study of Helianthus annuus with 15 samples.

Results

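Stem was set against flower in sunflower (Helianthus annuus), across every gene that reached at least 1 FPKM (read fragments scaled to gene length and to library size) in at least 3 of the 15 sequenced libraries. Of 63411 gene identifiers in the deposited table, 34586 met that rule. The comparison used 6 of the 15 libraries, 3 of stem and 3 of flower, and the other libraries came from root, leaf and axil, again 3 each. The labels give the tissue as the only description of each group, with no cultivar, age, treatment, developmental stage or part of the flower. Whether the 3 libraries of an organ are separate plants is not stated, and p-values therefore cover the spread among these libraries only, which may be technical.

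The stem carries water and sugars through its vascular bundles, and much of its tissue is fibre and vessel with thick, lignified walls. What is called a sunflower is a flower head of many small florets, which hold petals, stamens with pollen, and ovaries. Both organs come from the shoot apex, and both contain epidermis, green tissue and vascular strands. The table gives identifiers and no gene products, and pairs only 1 identifier with a name, so flower and stem marker genes could not be used to check the labels. In bulk tissue, fewer cells of a type and less RNA per cell cannot be told apart.

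Between 12275192 and 14727843 reads were recovered per stem or flower library, and 3 reads on a gene of 1000 nt corresponded to 0.204 to 0.244 FPKM. Across the genes tested, log2(FPKM + 1) correlated at 0.929 to 0.96 between stem libraries, at 0.97 to 0.983 between flower libraries and at 0.781 to 0.838 between stem and flower libraries. These are correlations across genes, which are not independent replicates. The spread was wider in stem, where the median SD over the 3 libraries was 0.249 on the log2(FPKM + 1) scale, against 0.145 in flower. Stem 3 lay nearest to flower, with a mean correlation of 0.83 with the flower libraries, and Stem 2 farthest, at 0.797. Flower 1, and outside the contrast Leaf 2, stood apart in their reads of several small identifier classes, described further on, and values that rest on them are also given without them.

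Most genes that reached a mean of 1 FPKM in stem or flower reached it in both, and the genes that differed were split almost evenly between them. A mean of at least 1 FPKM was reached by 28393 identifiers in stem and 28300 in flower, and 25692 reached it in both. A gene was called when limma's test gave a Benjamini-Hochberg adjusted p under 0.05 and the log2 difference was at least 1 in size. By that rule 3106 genes were higher in stem than in flower (8.98% of those tested) and 2974 were lower in stem (8.6%). The stem and flower libraries did not overlap for 3088 of the genes called higher and for 2955 of those called lower. At an adjusted p under 0.05 with no limit on size, 30.1% of the genes tested differed. Non-overlap by itself was far more common, with stem above in 24% of all genes tested and below in 23.6%. The median log2 difference, stem minus flower, over all genes tested was 0. Neither direction held a stable majority: 51.1% of the called genes were higher in stem, against 49.1% with libraries scaled to the same sum and 49.6% with a pseudocount of 5.

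**Figure D1:**
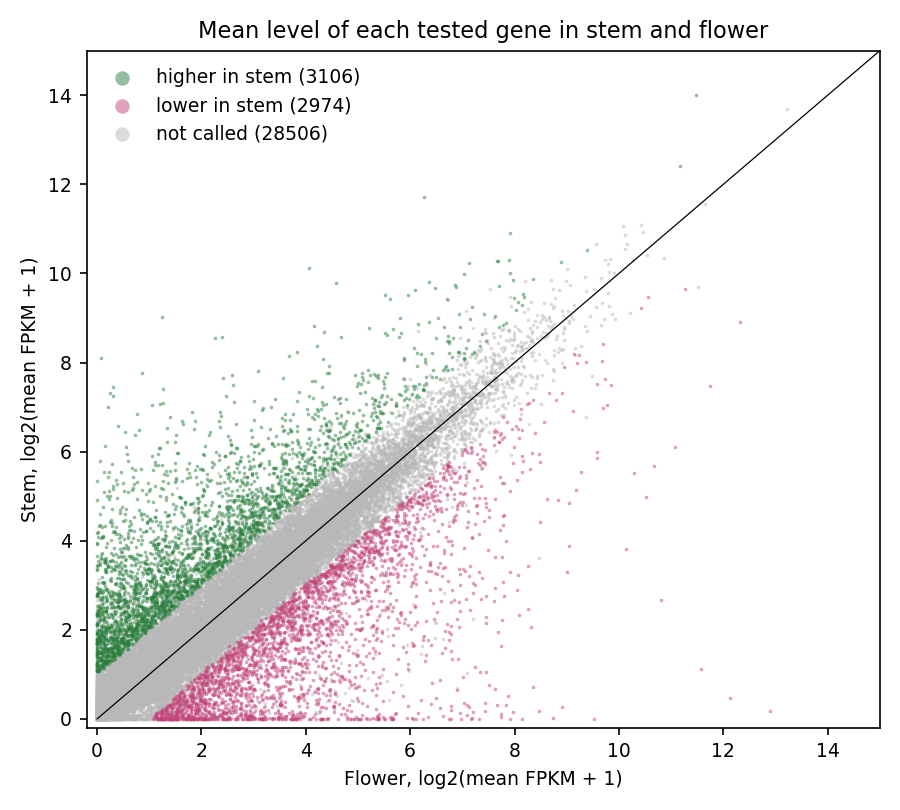
Each point is 1 of the 34586 genes tested, with its mean level in stem (y axis) and in flower (x axis) as log2(mean FPKM + 1); green points were called higher in stem, pink points lower in stem, grey points were not called, and the line marks equal levels. The pink points reach farther from the line along the bottom edge, where stem is near 0, than the green points do along the left edge, where flower is near 0.

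Differences were of similar size in both directions for the typical called gene. More of the largest ones lay on the flower side, a count that rests in part on the filter, as given below. Among the genes higher in stem, 65% differed by a log2 value between 1 and 2, and among those lower in stem 62.2% did. The median size was 1.65 and 1.7 on the log2(FPKM + 1) scale, where the added 1 makes changes of low genes look smaller. As a plain ratio of the higher to the lower mean FPKM, with genes at 0 reads set to 3 reads over the group, the medians were 5.18 for 3105 genes higher in stem and 5.28 for 2965 genes lower in stem. A log2 difference of at least 2 was reached by 1088 genes higher in stem (3.15% of those tested) and 1125 lower in stem (3.25%). A size of at least 3 was reached by 361 genes higher in stem (1.04%) and 506 lower in stem (1.46%). A size of at least 5 was reached by 38 genes higher in stem (0.11%) and 106 lower in stem (0.306%).

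The filter itself shapes part of these counts. Of the genes tested, 175 reached 1 FPKM only in the 3 stem libraries, and 147 of them were called. A further 447 reached it only in the 3 flower libraries, and 398 of them were called. Such genes could pass only through the organ where they were high. At a log2 size of at least 5, 2 of the 38 genes higher in stem met the filter only with the stem libraries. Of the 106 lower in stem, 57 met it only with the flower libraries. The genes that met it without that organ numbered 36 higher and 49 lower in stem at a size of at least 5. They numbered 321 and 321 at a size of at least 3, and 966 and 802 at a size of at least 2.

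On the log2(FPKM + 1) scale, the largest difference in favour of stem was that of HannXRQ_Chr17g0565591 on chromosome 17, a gene of 456 nt. It had 329, 139 and 349 FPKM in Stem 1, 2 and 3, against 0, 0 and 0.158 FPKM in Flower 1, 2 and 3. Every stem library was far above every flower library, and the flower value rests on 1 read in Flower 3. The log2 difference was 7.91 ± 0.4 (SE; limma adjusted p = 1.04e-08). By reads per library depth, stem exceeded flower by a ratio of 5204, with an exact 95% interval of 934 to 205579 that covers counting error only. The gene was also present in axil, at 113 ± 70.8 FPKM (SD, n = 3; 72.9 without Axil 1), and in leaf, at 19.7 ± 6.13 (SD, n = 3), and it had 0 reads in the 3 root libraries. The gene that directly precedes it in the numbering, 909 nt long, had a like profile, at 158 ± 74.4 FPKM in stem and 0.188 ± 0.122 FPKM in flower (SD, n = 3 each). Its log2 difference was 6.93 ± 0.4 (SE; limma adjusted p = 3.14e-08). Whether the neighbours are near-identical copies that share reads was not tested.

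The next largest in stem was HannXRQ_Chr09g0273361 on chromosome 9, with 443, 623 and 481 FPKM in the stem libraries, against 0.791, 1.66 and 1.69 FPKM in the flower libraries. The groups did not overlap, and all 3 flower libraries held reads of it. The log2 difference was 7.77 ± 0.57 (SE; limma adjusted p = 3.54e-07). With a pseudocount of 5 the order of these 2 genes turned, at 6.34 for this gene and 5.67 for HannXRQ_Chr17g0565591. Unlike the first gene it was high in root, at 172 ± 87.7 FPKM (SD, n = 3). It stood at 73.8 ± 14.2 FPKM in leaf and at 20.4 ± 22.3 in axil (SD, n = 3 each), where the mean was 7.56 without Axil 1. Flower was thus the lowest of the 5 tissues for this gene.

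In the other direction, HannXRQ_Chr17g0559971 on chromosome 17, a gene of 402 nt, had 0.175, 0 and 0.203 FPKM in the stem libraries, against 7869, 7654 and 7211 FPKM in the flower libraries. The stem level rests on 2 reads in all, and the 3 flower libraries lay close together. The log2 difference was -12.72 ± 0.18 (SE; limma adjusted p = 4.37e-14). The gene reached 1 FPKM in no library outside flower, so it passed the filter only through the organ where it was high, and this p describes the gene without counting as evidence. In limma's fit with no filter, the adjusted p was 3.84e-13. The ratio of stem to flower by reads per depth was 1.7e-05, with an exact 95% interval of 2.05e-06 to 6.12e-05. Outside these organs 3 reads of it were recovered in root, 7 in leaf and 4 in axil, over the 3 libraries of each.

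HannXRQ_Chr16g0516891 on chromosome 16, 1293 nt long, had 0.382, 0.0629 and 0.693 FPKM in the stem libraries, against 4660.2, 3977 and 4817 FPKM in the flower libraries. The log2 difference was -11.69 ± 0.18 (SE; limma adjusted p = 1.52e-13). Its stem mean of 0.379 FPKM was 0.222 without Stem 3. It was low in all tissues but flower, with its next highest mean in axil, at 2.24 ± 0.515 FPKM (SD, n = 3). Of the 4 genes within 2 places of it in the numbering, 2 were called higher in stem and 1 lower. The gene 2 places after it was higher in stem, at 34.1 ± 3.88 FPKM, against 0.591 ± 0.0976 FPKM in flower (SD, n = 3 each; log2 difference 4.46, limma adjusted p = 8.54e-10). The gene just before it in the numbering was higher in stem, at 11.6 ± 2.62 FPKM, against 0.518 ± 0.396 FPKM in flower (SD, n = 3 each; log2 difference 3.07, limma adjusted p = 5.38e-07). Root, leaf and axil means of that gene were at most 0.363 FPKM, so it met the filter only with the stem libraries. This p describes the gene without counting as evidence. The gene 2 places before HannXRQ_Chr16g0516891 was lower in stem, at 0.21 ± 0.263 FPKM, against 15.3 ± 2.09 FPKM in flower (SD, n = 3 each; log2 difference -3.76, limma adjusted p = 3.28e-09). Its mean was at most 0.21 FPKM in the other tissues, so it met the filter only with the flower libraries. Here too the p describes the gene without counting as evidence. The gene just after HannXRQ_Chr16g0516891 was not called (log2 difference -0.28, limma adjusted p = 0.198).

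**Figure D2:**
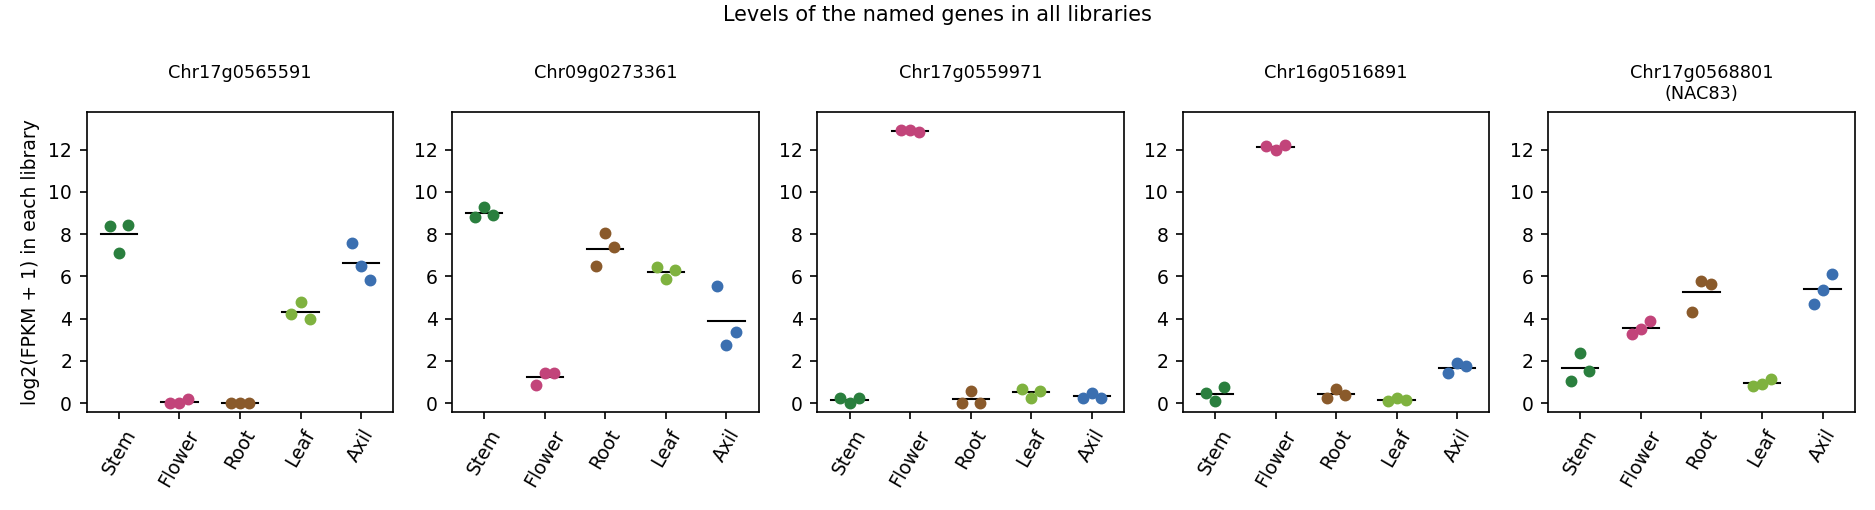
Levels of the 4 genes with the largest differences and of NAC83 in all 15 libraries, as log2(FPKM + 1) on the y axis, by tissue on the x axis; each point is a library and each bar the mean of 3. The 2 genes highest in stem are also found in axil or root, whereas the 2 genes highest in flower are low in the other 4 tissues, the second of them with its next highest mean in axil, at 2.24 FPKM.

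NAC83 (HannXRQ_Chr17g0568801, chromosome 17) is the single gene that the table names. NAC proteins are plant transcription factors, and in Arabidopsis the gene of this name, also called VNI2, is known as a repressor of genes for xylem vessels. It had 1.08, 4.13 and 1.87 FPKM in the stem libraries, against 8.55, 10.3 and 13.6 FPKM in the flower libraries. The groups did not overlap, and Stem 2 was the highest of the stem libraries, with a stem mean of 2.36 FPKM that was 1.48 without it. NAC83 was lower in stem (log2 difference -1.89 ± 0.43, SE; limma adjusted p = 0.00444), with adjusted p between 0.000757 and 0.026 over 26 alternative settings. It stayed called in all of them but the one that required a log2 difference of 2. Root, at 40.9 ± 19.1 FPKM, and axil, at 44.2 ± 21.8 FPKM (SD, n = 3 each), had no library as low as the highest of stem or flower.

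Genes at 10 FPKM or more in 1 of the organs and near absent from the other were more frequent on the flower side. With a single level of 1 FPKM this did not hold. A mean of at least 1 FPKM in stem and under 1 in flower was found for 2701 identifiers, and the reverse for 2608. A mean of at least 10 FPKM in stem, with under 1 FPKM in each flower library, was found for 138 of the 63411 identifiers. The reverse, at least 10 FPKM in flower with under 1 FPKM in each stem library, was found for 253, or for 225 when Flower 1 was left out of the flower mean. Of the 138, 136 had at least 1 FPKM in each stem library, and of the 253, 229 had it in each flower library. Among the 26 of the 253 that were not called, 23 had their highest flower value in Flower 1, and 14 had not passed the filter. The highest level was 272 FPKM among the stem genes and 7578 FPKM among the flower genes. No reads at all were recovered in the 3 flower libraries for 7 of the 138 and in the 3 stem libraries for 66 of the 253. A count of 0 in all 3 libraries of an organ allows up to 3 reads over the group, which on a gene of 1000 nt is 0.0774 FPKM in stem and 0.0723 FPKM in flower.

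The libraries of root, leaf and axil, which the contrast did not use, showed where else these genes were read. Of the 138 genes of stem against flower, 24 stayed under a mean of 1 FPKM in root, leaf and axil, and 51 reached 10 FPKM in at least 1 of those tissues, 29 of them in root, 28 in axil and 21 in leaf. Of the 253 genes of flower against stem, 133 stayed under 1 FPKM in those 3 tissues, and 48 reached 10 FPKM in at least 1, with 33 in leaf, 14 in root and 12 in axil. These counts rest in part on Leaf 2. Without it, 28 of the 253 reached 10 FPKM in at least 1 of the tissues, 13 of them in leaf, and 151 stayed under 1 FPKM. For the 138 the same counts without Leaf 2 were 48, 20 and 26. The median level of the 138 in these tissues was 2.29 FPKM in axil, 1.24 in leaf and 1.17 in root. The median of the 253 was 0.21 FPKM in axil, 0.152 in leaf (0.0903 without Leaf 2) and 0.0337 in root.

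The libraries outside the contrast were also read for all called genes. Among all genes tested, 2197 (6.35%) had a mean under 1 FPKM in root, leaf and axil. Of the genes higher in stem, 338 (10.9%) did. Of those lower in stem, 678 (22.8%) did. Most of them met the filter only with the libraries of the organ where they were high, 283 of the 338 and 584 of the 678, so the shares describe which genes the filter let in and support no difference between the lists. Where the log2 difference was 5 or more, the numbers were 0 of the 38 higher in stem and 52 of the 106 lower in stem, and 51 of these 52 met the filter only with the flower libraries. Stem had the highest mean of the 5 tissues for 1742 of the genes called higher in it (56.1%), and root for 648 of them (20.9%). Flower had the highest mean for 2265 of the genes called lower in stem (76.2%), and leaf for 353 (11.9%; 9.62% without Leaf 2). Over all genes tested, the highest mean was in stem for 17.5%, in flower for 21.5%, in root for 26.2% and in leaf for 14.1%. The shares of root and leaf in the lists were thus below their shares over all genes tested. The test of these shares against each other was not run, and a gene chosen as higher in an organ is more often highest there by construction.

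By level, the median of the genes called higher in stem was 11.5 FPKM in stem and 1.91 FPKM in flower, and it lay between these in axil (5.84), root (4.81) and leaf (4.08). The median of the genes called lower in stem was 2.13 FPKM in stem and 13.5 FPKM in flower. In axil it was 2.66 FPKM, and in root 1.01 FPKM, below stem. In leaf it was 2.44 FPKM, above stem, but 1.76 FPKM, below stem, without Leaf 2. Measured from the midpoint between the stem and flower levels on the log2 scale, axil lay on the stem side for 49.1% of the genes called higher in stem, root for 44.3% and leaf for 38.3%. For the genes called lower in stem, root lay on the stem side for 83.1%, axil for 79.6% and leaf for 73.5%. Of the 3106 genes higher in stem 354 met the filter only with the stem libraries, and of the 2974 lower 662 only with the flower libraries. Such genes are mostly low in root, leaf and axil by construction, so the shares support no difference between the lists. Of the 3 tissues leaf most often sided with flower in both lists, also without Leaf 2, when it lay on the stem side for 37.2% and 76.5%.

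**Figure D3:**
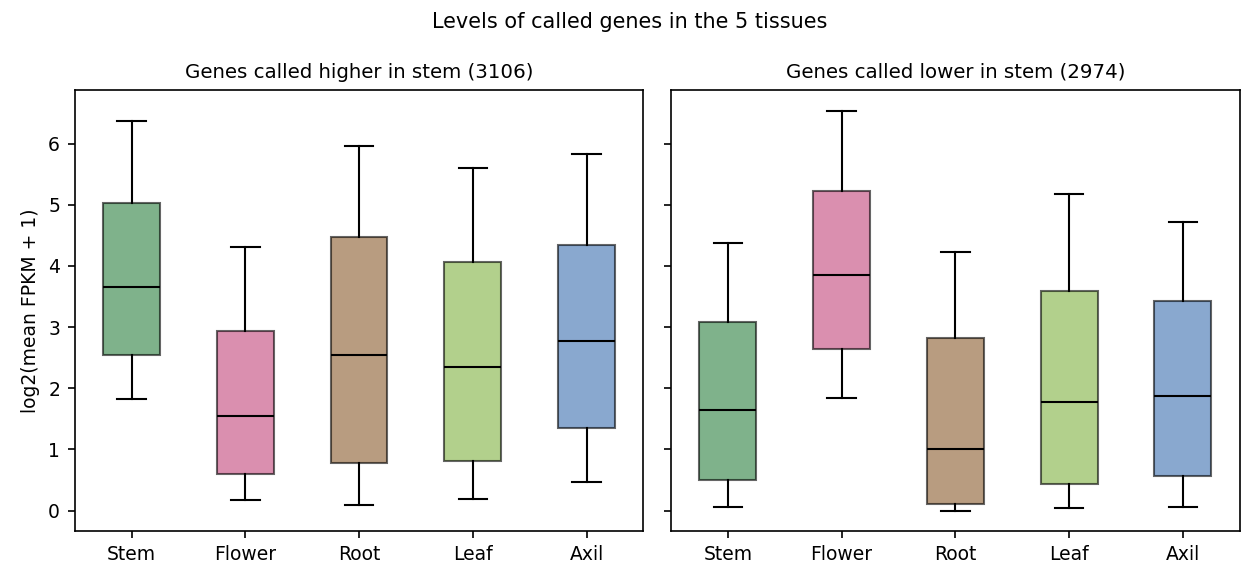
Levels of the 3106 genes called higher in stem (left) and of the 2974 called lower in stem (right) in the 5 tissues, as log2(mean FPKM + 1) per gene; boxes run between the quartiles of the genes with the median as a line, and whiskers run from the 10th to the 90th percentile. On the left root, leaf and axil lie between stem and flower, and on the right they lie near or below stem.

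In reads, each list of called genes held several times more of the libraries of the organ it was called in than of the other, as follows from the way it was chosen. The lists were 8.98% and 8.6% of the genes tested. The genes called higher in stem held 16.6 to 20.5% of the reads of the stem libraries and 4.18 to 4.67% of those of the flower libraries. They held 12.6 to 13.7% in root, 12.2 to 13.2% in axil and 10.2 to 11.5% in leaf. The genes called lower in stem held 3.4 to 4.39% of the reads in stem and 18.6 to 20.7% in flower. In the other tissues they held 7.29 to 10.3% in leaf, 4.12 to 5.28% in axil and 4.09 to 4.69% in root. In each library outside the contrast except Leaf 2, the genes higher in stem held more reads than the genes lower in stem. Leaf 2 held 0.125% of its reads in HannXRQ_MT identifiers, compared with 0.0215% in Leaf 1 and 0.0216% in Leaf 3, and 0.285% in identifiers not placed on a chromosome, compared with 0.0617% and 0.0626%. No HannXRQ_MT identifier was called, so those reads are in neither list. Of the unplaced identifiers, 7 were called higher in stem and 4 lower, and their part in the exception was not tested.

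Within the lists of called genes, the stem libraries differed in how often each was the highest of the 3. Stem 2 was the highest of the 3 stem libraries for 43.5% of the genes called higher in stem, and Stem 3 for 22.3%. For the genes called lower in stem the order was the other way, with Stem 3 the highest of the 3 for 44.4% and Stem 2 for 22.6%. The same shares over all genes tested were not computed, and the lists were called with these same libraries. A ranking of the libraries across all genes therefore cannot be told apart from a pattern of stem against flower. Without Stem 3, with the filter kept, 3359 genes were higher in stem and 3128 lower, more than with all libraries.

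**Figure D4:**
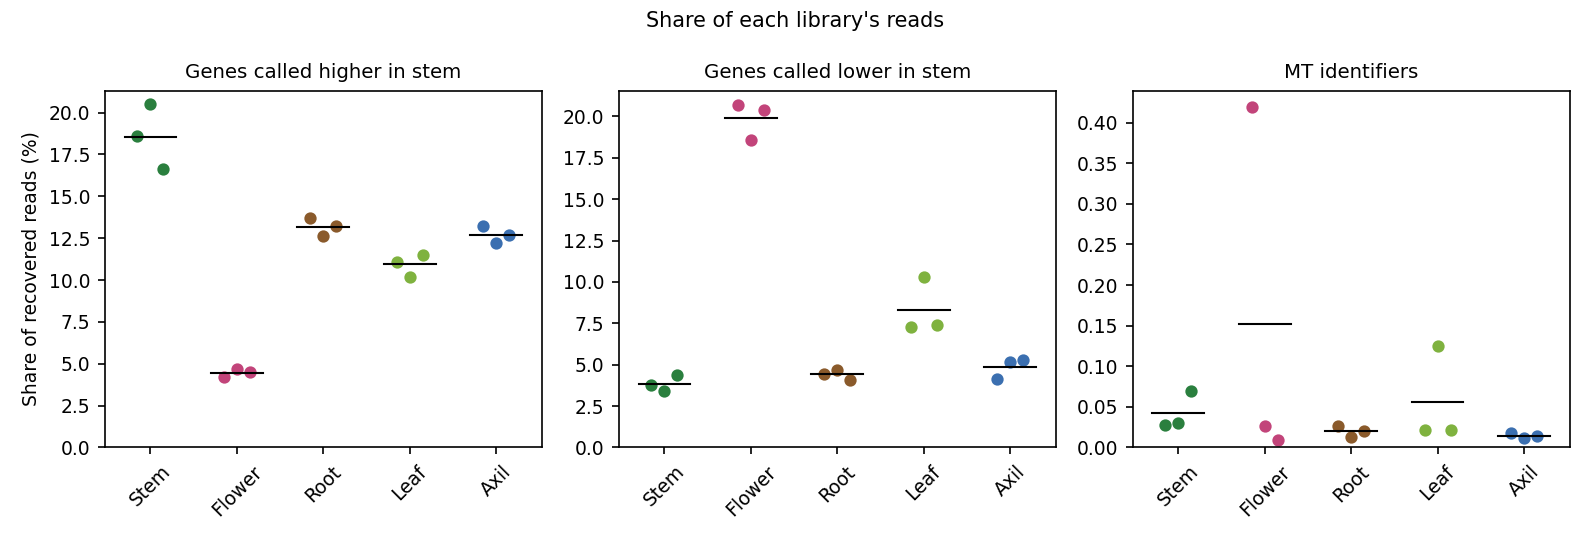
Share of recovered reads per library (y axis, percent, each panel with its own scale) held by the genes called higher in stem, by those called lower in stem and by identifiers beginning with HannXRQ_MT; each point is a library and each bar the mean of 3. In the right panel Flower 1, at 0.419%, stands far above Flower 2 and Flower 3, at 0.0264% and 0.00919%.

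The most abundant genes overlapped in part. Of the 100 genes with the highest mean FPKM in stem and the 100 with the highest in flower, 46 were in both lists, which is 46% of each. Among the top 100 of stem, 38 were called higher in stem and 3 lower. Among the top 100 of flower, 4 were called higher in stem and 37 lower. A mean of at least 1000 FPKM was reached in stem by 13 of the genes called higher there, and in flower by 14 of the genes called lower in stem.

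The share of genes called depended on level and on gene length. With a mean over both organs under 1 FPKM, 4.64% of 5514 genes were called, compared with 19% of 10927 genes between 1 and 5 FPKM and 27.9% of 983 genes between 100 and 1000 FPKM. The 1 added before taking logs leaves genes under 1 FPKM little room to reach a log2 difference of 1. At a log2 difference of at least 2, 0 of the 5514 were called. Length, as implied by the FPKM values, differed between the lists. The median was 1260 nt for the genes called higher in stem, 1426 nt for those called lower in stem and 1602 nt for those not called. Of 2759 genes shorter than 500 nt, 12.1% were called higher in stem and 8.12% lower. Of 1949 genes of at least 4000 nt, 2% were called higher in stem and 4.82% lower. Longer genes gather more reads at the same FPKM, and the part of level or read number in these shares was not tested.

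**Figure D5:**
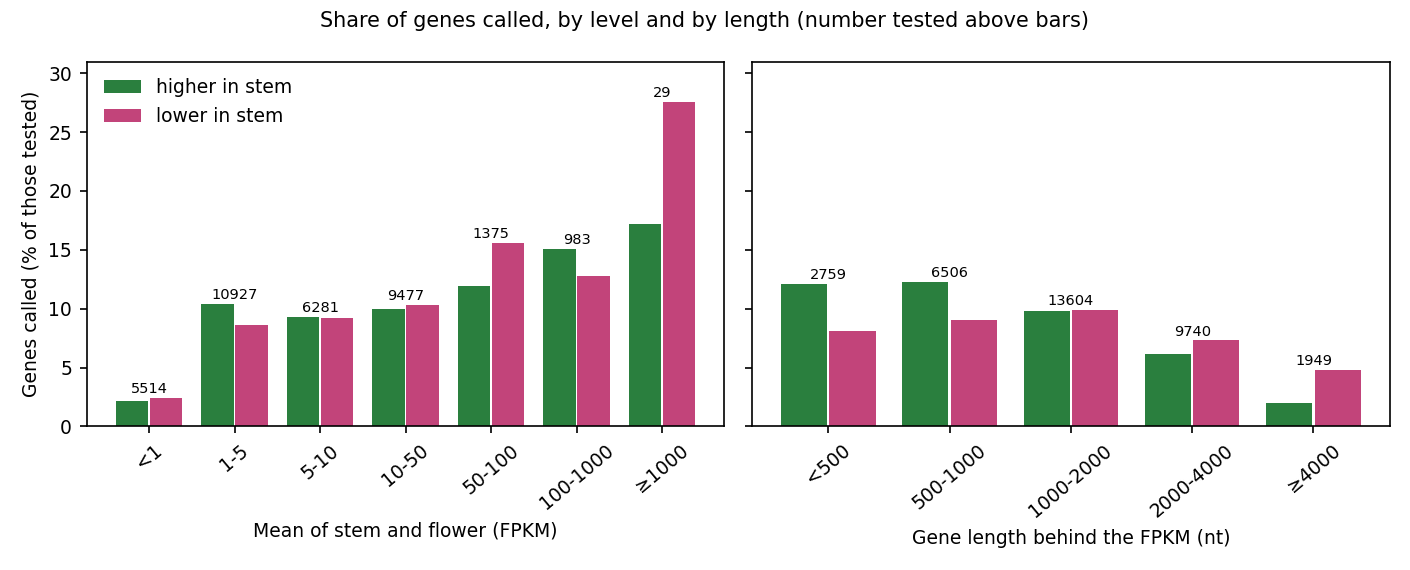
Percentage of tested genes called higher in stem (green) and lower in stem (pink), by the mean level over both organs in FPKM (left) and by gene length in nt (right), with the number of genes tested above each pair of bars. Both shares are smallest under 1 FPKM, and among genes of at least 4000 nt they are 2% and 4.82%.

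The calls were spread over all 17 chromosomes. The share of tested genes called in either direction ran from 16.1% on chromosome 1 to 19.7% on chromosome 8, against 17.6% of all genes tested. The 95% Wilson intervals of these 2 shares were 14.5 to 17.9% on chromosome 1 and 17.9 to 21.7% on chromosome 8. By direction, 8.98% of all genes tested were called higher in stem and 8.6% lower. On chromosome 6, 103 genes were called higher in stem (7.65%) and 137 lower (10.2%), and on chromosome 7, 100 (7.84%) and 130 (10.2%). On chromosome 8 the numbers were 187 (10.7%) and 159 (9.06%). Whether direction differs between chromosomes was not tested. Intervals cover counting error only.

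Along the chromosomes, genes next to each other in the numbering were more often called in the same direction than in opposite ones. Of 21152 pairs of neighbours with both genes tested, 306 were both higher in stem, 272 were both lower in stem and 260 were called in opposite directions. Of 2518 genes higher in stem that had a tested neighbour, 22.6% had one that was also higher. Of 2463 genes lower in stem, 20.5% had one that was also lower. Among genes that were not called, 11.8% had a neighbour higher in stem and 11.8% had a neighbour lower in stem. Runs of at least 3 neighbours numbered 36 among the genes higher in stem, holding 114 genes, and 31 among the genes lower in stem, holding 100. The longest had 5 genes, 1 on chromosome 13 and 1 on chromosome 16, both higher in stem. Neighbouring copies of a gene family can share reads, and its part in these counts was not tested.

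Of the genes placed on chromosomes, 17.8% were called. Of 1383 numbered identifiers that carry neither the HannXRQ nor the ENSRNA prefix, 128 were higher in stem (9.26%) and 86 lower (6.22%), together 15.5% with a 95% Wilson interval of 13.7 to 17.5%. Of 234 ENSRNA identifiers, the noncoding RNA class of the table, 10 were higher and 9 lower, together 8.12% with a 95% Wilson interval of 5.26 to 12.3%. Of 72 identifiers not placed on a chromosome, 7 were higher in stem and 4 lower, together 15.3% with an interval of 8.75 to 25.3%. Selection of poly(A) RNA limits how far noncoding RNA was measured.

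None of the 21 identifiers tested that begin with HannXRQ_MT was called (0 by limma, 0 at an unadjusted p under 0.05, and 0 by limma's voom on recovered reads). The letters MT and CP are commonly used for mitochondrial and chloroplast genes, and the table does not define them. Their median level was 1.33, 1.15 and 3.11 FPKM in the stem libraries, against 72.2, 0.884 and 0.613 FPKM in the flower libraries, so that only Flower 1 was high. The median log2 difference, stem minus flower, was -1.4 with all libraries and 0.3 without Flower 1. The 5 tested identifiers that begin with HannXRQ_CP had a median of 11.4 FPKM in Flower 1 and at most 1.13 in the other 5 libraries of the contrast, and 0 were called by limma, 0 at an unadjusted p under 0.05 and 0 by voom. Identifiers not placed on a chromosome took 0.277% of the reads in Flower 1 and 0.0512 to 0.067% in the other 5. Without Flower 1, with the filter kept, 2718 genes were higher in stem and 2783 lower, and 2664 and 2681 of the reported calls were among them.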

How the data were processed

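RNA of 5 sunflower tissues was sequenced in 15 libraries. Per the labels' protocols, mRNA was captured with oligo(dT), fragmented to short pieces and ligated to adaptors with molecular identifiers. The authors deposited 1 FPKM per gene and library, beside columns that equal the mean of a tissue. The submitters' processing notes name HTSeq 0.6.1. Not given in the sources used here are the aligner, the genome build, the annotation and whether molecular identifiers were counted. A further 16 unnamed columns were not used, apart from the name NAC83. The RefSeq gene table of HanXRQr2.0-SUNRISE matched 0 identifiers, and chromosome numbers are read from the identifiers themselves.

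limma 3.58.1 (R 4.3.3) was run on log2(FPKM + 1) with a mean per tissue and a mean-variance trend. All 15 libraries entered the fit and share 1 estimate of the spread. Reported differences are stem minus flower. FPKM values of a gene step by what 1 read is worth, which gave back whole reads, within 1e-06 for genes of few reads, and the lengths they imply were whole within 0.02 nt for 100% of 22331 genes. The fit and the recovery were run on simulated data with the same spread setting for every gene and tissue. In the real libraries the spread differed between stem and flower, so the simulation does not give the error rate of these calls. Replicates of each of the 5 tissues differed by more than sampling noise (chi-square per degree of freedom 9.58 to 66.1).

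Named genes are the 2 largest differences in each direction among called genes that averaged 5 FPKM or more in the higher organ and no overlap between libraries, plus NAC83. Lists of 76 flower, pollen, lignin, cell wall, photosynthesis and meristem symbols, and names starting with TCP, CYC or BRC, matched 0 identifiers. The members, lists and tests were chosen with earlier results of these data known. Values without Flower 1 for confined genes and identifier classes, and leaf values without Leaf 2, were added after the data were seen. Tables were handled in pandas 2.3.3 and numpy 2.4.6 under Python 3.11.15, intervals came from SciPy 1.17.1, and plots from matplotlib 3.10.9.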

Additional observations from a re-analysis of the deposited data

How the results depend on the processing

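Over 26 settings, 46 of 52 recomputed counts of called genes stayed within 1.5 times their reported value, and no gene called in 1 direction was called in the other. The exceptions follow from the settings themselves, which move the threshold or shrink low genes: 1596 genes higher in stem and 1620 lower with a pseudocount of 5, 5185 and 5229 with adjusted p alone, and 1088 and 1125 when the log2 difference had to reach 2. At that last threshold the share called was 6.55% of chromosomal, 3.76% of numbered, 2.14% of ENSRNA and 4.17% of unplaced identifiers, and 5.86 to 7.64% over the chromosomes. With levels of 20 and 1 FPKM, 49 genes were confined to stem against flower and 125 to flower against stem. Leaving out 1 stem or flower library gave 2693 to 3359 genes higher in stem and 2371 to 3128 lower, under both ways of filtering. With limma's voom on recovered reads, 3761 genes were higher in stem and 3641 lower. Of 127 recomputations of the differences of the 5 named genes, 126 kept their direction and their call, the exception being NAC83 (-1.89) when the log2 difference had to reach 2. Runs in which the filter removed HannXRQ_Chr17g0559971 are not among them. The gene lists matched no identifiers, so nothing was recomputed for them.

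The deviations of same-numbered stem and flower libraries correlated at 0.022, 0.0568 and -0.101 for numbers 1, 2 and 3. Those of differently numbered libraries correlated at -0.103 to 0.0841. With 3 libraries per organ these values cannot tell whether the numbers mark a shared plant or batch, and the labels do not say. A replicate block gave 3038 genes higher in stem and 2925 lower. Depth limits single libraries to about 0.204 to 0.244 FPKM on a gene of 1000 nt, the level of 3 reads. Which genes the counts of calls depend on most was not tested.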
